A study of Mus musculus with 21 samples.

Results

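Neurog3, Neurod1, Insm1, Pax4, Pax6, Isl1, Nkx2-2, Rfx6 and Foxa2 encode the transcription factors that drive the enteroendocrine lineage of the intestine. They were picked by gene name from the deposited expression table, matched to the deposited counts by Ensembl identifier, and followed across every group of the study as 9 of the 37310 genes measured. All 9 were present, each in 1 row, and all 9 passed the filter on low counts. Enteroendocrine cells are the hormone-secreting cells of the gut epithelium and descend from the Lgr5 stem cells at the crypt base. Where Notch signalling is low a crypt progenitor can take the secretory path, and a pulse of Neurog3 then commits it to the endocrine fate. Neurod1, Insm1, Rfx6 and the homeodomain factors of the list act mostly after Neurog3, in differentiation and in the choice of hormone, while Foxa2 acts more broadly in gut endoderm.

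RNA was sequenced in bulk from sorted Lgr5 intestinal cells of 3-month-old Lgr5EGFPcre-ERT2 mice, in 7 groups of 3 libraries. AIN mice ate the purified AIN76A diet, NWD1 and NWD2 mice ate the diets of those names, diets whose makeup the sources used here do not state. NWD1Ca mice ate NWD1 with calcium at 7.0 mg/g, NWD1VitD mice ate NWD1 with vitamin D at 2.3 IU/g, and AINlowVitD mice ate AIN with vitamin D at 0.11 IU/g, doses that the labels give per body weight. AIN_VdrKO mice ate AIN76A and are labelled as lacking the vitamin D receptor. Every mouse, controls included, carried the Lgr5EGFPcre-ERT2 allele, whose reporter the sort used by taking the brightest cells, and no label says whether a library pooled animals. NWD1Ca held females only and AIN_VdrKO males only, so sex was a term of the fits. The study asks what diet does to the transcriptome of intestinal stem cells.

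Counts on genes ran from 19889795 to 115435120 per library. The libraries fell into 2 sets that do not follow the base diet: on the first principal component (54.4% of the variance) AIN, NWD1 and NWD2 lay between -82.6 and -29.4, and NWD1Ca, NWD1VitD and AINlowVitD between 53 and 60. These are called the first and the second set here. AIN_VdrKO lay between them, from -14.5 to 38.3. Mitochondrial ribosomal RNA took 0.2335% to 0.965% of first-set counts, 2.95% to 5.07% of second-set counts and 1.38% to 2.80% in AIN_VdrKO. In any comparison across the sets, diet and set cannot be told apart. The same holds for genotype and these library differences where AIN_VdrKO is compared with AIN or AINlowVitD. AIN 1, AIN 2 and NWD1 1 stood apart from the other first-set libraries on that component, and spike-in RNA took 24.7% and 20.4% of the counts in NWD1 1 and NWD1 2. Levels within a gene are counts-per-million values (CPM), on library sizes scaled by the trimmed mean of M values. On that scale Lgr5 itself ranged from 9.49 to 87.2 in the AIN, NWD1 and NWD2 libraries, from 11.45 to 35.8 in the second-set libraries and from 24.0 to 44.9 in those of AIN_VdrKO. Vdr, the gene named in the knockout label, was at 247 to 482 CPM in AIN_VdrKO against 155 to 1269 in the other groups. A count over a whole gene does not check a deletion of part of it, and the sources used here do not state the allele.

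The promoters of 3 members are shown because the results turn on them. Isl1 and Pax6, which varied together, and Neurog3, which did not follow them, were chosen for display after their values were seen. Each line gives the 250 bases before the annotated start, 5′ to 3′ on the gene's strand, from RefSeq on build GRCm38.p6. Capitals mark CAGCTG, an E-box of the kind bound by basic helix-loop-helix factors such as Neurog3 and Neurod1.
Neurog3, chr10:62132840-62133089, plus strand: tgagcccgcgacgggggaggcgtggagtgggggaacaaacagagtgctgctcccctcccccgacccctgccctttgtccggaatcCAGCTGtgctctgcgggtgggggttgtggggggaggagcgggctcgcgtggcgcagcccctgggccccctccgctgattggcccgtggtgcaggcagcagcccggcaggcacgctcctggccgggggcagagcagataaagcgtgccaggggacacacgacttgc
Isl1, chr13:116309689-116309938, minus strand: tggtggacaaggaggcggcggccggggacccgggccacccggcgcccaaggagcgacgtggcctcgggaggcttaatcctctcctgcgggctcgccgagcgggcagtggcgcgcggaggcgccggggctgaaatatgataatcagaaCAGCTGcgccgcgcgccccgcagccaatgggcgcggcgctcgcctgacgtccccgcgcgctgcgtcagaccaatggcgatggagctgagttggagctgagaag
Pax6, chr2:105668646-105668895, plus strand: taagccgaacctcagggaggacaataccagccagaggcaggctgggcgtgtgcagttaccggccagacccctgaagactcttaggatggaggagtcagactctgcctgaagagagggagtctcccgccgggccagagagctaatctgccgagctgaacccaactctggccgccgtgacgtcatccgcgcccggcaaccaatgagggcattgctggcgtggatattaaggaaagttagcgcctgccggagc
Neurog3 held 1 CAGCTG that begins 165 bases before the start, Isl1 held 1 that begins 103 bases before it, and this Pax6 start, 1 of 2 listed, held none. The other E-box searched, CAGATG, was in none of the 3 windows, and neither was CACNAG, a sequence of the kind bound by Hes factors, nor TATAAA. Both strands were read, and CAGCTG is its own reverse complement. Of 32851 mouse promoter windows of the same length, 13% held CAGCTG, 14.4% CAGATG, 36.7% CACNAG and 12.4% TATAAA. The RefSeq table matched 7 of the 9 genes, with no entry for Insm1 or Pax4.

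The 9 loci have more in common than their function. Neurod1, Insm1, Pax6, Nkx2-2 and Foxa2, 5 of the 9, lie on chromosome 2. Insm1, Nkx2-2 and Foxa2 are close neighbours there, with 4 protein-coding genes between Insm1 and Nkx2-2 and 1 between Nkx2-2 and Foxa2. Neurog3 and Rfx6 are on chromosome 10, Pax4 on chromosome 6 and Isl1 on chromosome 13. In base composition the members span most of the range of tested genes. Insm1, which has 1 exon, is at 62.0% GC, above 98.2% of tested genes, Neurog3 at 57.3% and Foxa2 at 57.0%, while Neurod1 is at 43.6%, Rfx6 at 44.8% and Isl1 at 45.7%, against a median of 50.2% over the tested genes. The library kit does not keep strand, so reads of overlapping genes cannot be told apart. Pax6 overlaps Elp4 (120 to 2549 counts) and Pax6os1 (0 to 53 counts). Nkx2-2 overlaps 2 noncoding genes, of which the antisense Nkx2-2as had 0 to 2 counts.

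Levels between genes were compared in the deposited transcripts-per-million values (TPM), a scale that divides by gene length. In AIN, NWD1 and NWD2 the order began with Neurog3, whose mean was 16.8 ± 12.5, 46.2 ± 14.3 and 35.3 ± 18.3 TPM (SD, n = 3), followed by Neurod1 at 11.7 ± 4.97, 21.1 ± 23.2 and 19.4 ± 1.88 TPM. In NWD1Ca, NWD1VitD and AINlowVitD the order was Neurod1, Isl1, Foxa2, Neurog3, Insm1, Pax4, Rfx6, Nkx2-2 and Pax6 in each group. There Neurod1 was at 9.57 ± 2.51, 11.3 ± 2.55 and 5.94 ± 2.36 TPM and Neurog3 at 4.44 ± 1.04, 5.53 ± 0.892 and 4.26 ± 2.87 TPM. In AIN_VdrKO the highest mean was that of Foxa2, at 9.43 ± 1.71 TPM, above Neurog3 at 8.05 ± 2.63. Pax6 was the lowest of the 9 in every group on this scale, at 0.276 to 0.592 TPM, and Nkx2-2 was ranked 7 or 8. No source used here states the gene lengths behind the deposited TPM, and the rank of Pax6 depends on them. CPM divided by TPM within a library gives relative lengths, and that of Pax6 was 7.27 times that of Neurod1, against 1.62 times for the GENCODE transcripts. Per kilobase of those transcripts, a scale added once the values were known, Pax6 was ranked 7 to 9. Most neighbours in these orders overlapped library by library. In the second set only the steps from Insm1 to Pax4 and from Nkx2-2 to Pax6 were free of overlap in all 3 groups, while the first 4 ranks overlapped their neighbours in each.

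**Figure D1:**
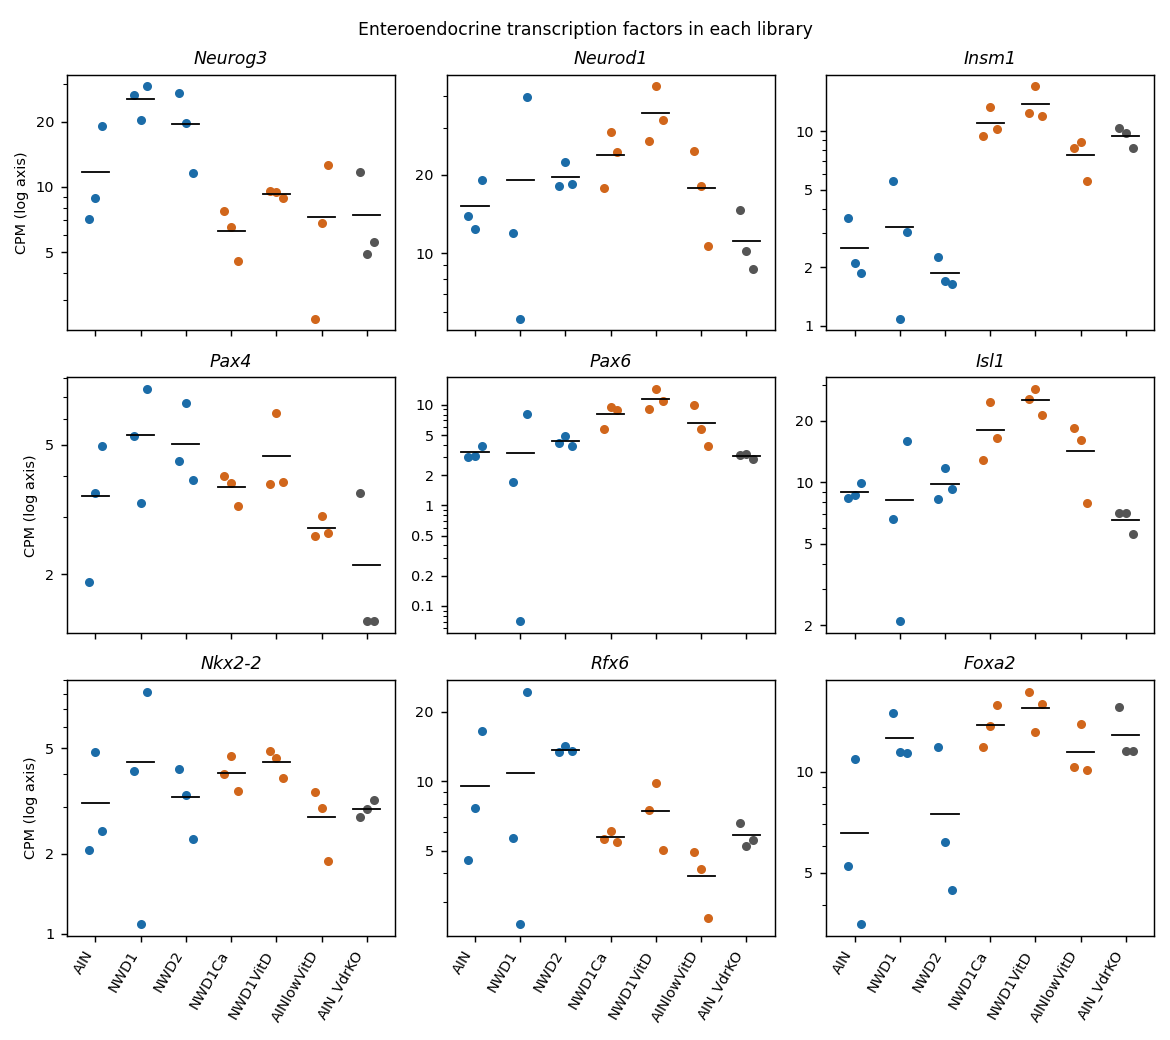
CPM of each of the 9 factors (log axis, a range of its own in each panel) in every library, by group; points are libraries and bars are means of 3. Blue marks AIN, NWD1 and NWD2, orange NWD1Ca, NWD1VitD and AINlowVitD, and grey AIN_VdrKO. The 12 points of Insm1 in the last 4 groups sit at or above 5.53 CPM, and Pax6 falls to 0.0701 CPM in NWD1 2.

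Neurog3 is the factor that commits a progenitor to the endocrine fate, and it is shut off as the cell matures. It was at 7.08, 8.87 and 19.2 CPM in AIN 1 to 3, at 26.6, 20.4 and 29.2 in NWD1, and at 27.1, 19.7 and 11.6 in NWD2. It was at 7.72, 6.53 and 4.53 CPM in NWD1Ca, at 9.60, 9.45 and 8.89 in NWD1VitD, at 2.46, 6.78 and 12.7 in AINlowVitD, and at 11.8, 4.92 and 5.59 in AIN_VdrKO. Each NWD1 library was above each AIN library and above every library of the second set, and the 3 NWD2 libraries spread across the AIN range and above it. Against NWD1, Neurog3 fell by 1.65 on the log2 scale in NWD1Ca (SE 0.46, edgeR quasi-likelihood F test with Benjamini-Hochberg adjustment over 16050 genes, adjusted p = 0.0115) and by 1.48 in NWD1VitD (SE 0.44, adjusted p = 0.0114). In log2(TPM + 1) it fell by 2.67 and 2.82, and by 1.89 and 1.87 relative to the median of all genes. Both calls were lost without NWD1 3 (-0.99 and -0.96, adjusted p = 0.202 and 0.1145), that of NWD1Ca without NWD1Ca 3 (0.0531) and that of NWD1VitD without NWD1VitD 3 (0.0537).

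Within the first set, Neurog3 was 1.07 ± 0.43 higher in NWD1 than in AIN on the log2 scale, which did not pass (adjusted p = 0.234 by edgeR's quasi-likelihood test). NWD2 differed from AIN by 0.55 ± 0.43 (adjusted p = 0.779). The difference was -1.005 ± 0.46 in AIN_VdrKO against AIN (adjusted p = 0.161) and -0.70 ± 0.43 in AINlowVitD against AIN (adjusted p = 0.223), while in log2(TPM + 1) the latter passed at -1.70 (limma, adjusted p = 0.00364), or -1.05 relative to the median of all genes.

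Insm1 encodes a zinc-finger factor that acts just after Neurog3. It was at 3.59, 2.09 and 1.86 CPM in AIN, at 5.53, 1.09 and 3.01 in NWD1 and at 2.25, 1.69 and 1.64 in NWD2. In the second set it was at 9.46, 13.4 and 10.3 CPM in NWD1Ca, at 12.4, 17.0 and 11.9 in NWD1VitD and at 8.22, 8.84 and 5.53 in AINlowVitD. The AIN_VdrKO libraries had 10.4, 9.79 and 8.20 CPM. AINlowVitD 3 had 5.526 CPM and NWD1 1 had 5.531, so the first set and the second overlapped only between these 2 libraries. Each group compared below was clear of its reference. The share of all genes clear in the same way is not given here for those comparisons, in which 12.5% to 40.5% of genes were called.

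Insm1 was higher in the 4 comparisons that set a second-set group or AIN_VdrKO against AIN or NWD1. It rose by 1.58 ± 0.42 in AINlowVitD against AIN (log2 fold change ± SE, edgeR adjusted p = 0.00807) and by 2.11 ± 0.47 in AIN_VdrKO against AIN (adjusted p = 0.00612). Against NWD1 it rose by 1.59 ± 0.46 in NWD1Ca (adjusted p = 0.0149) and by 2.08 ± 0.42 in NWD1VitD (adjusted p = 0.000925). NWD1Ca and NWD1VitD share the NWD1 libraries, and AINlowVitD and AIN_VdrKO share those of AIN. Since Insm1 is among the most GC-rich genes, an offset for GC content and length was tried, chosen after the data were seen, and it kept these 4 calls, at 1.11, 1.61, 1.42 and 1.83 in that order. The deposited TPM values shift all genes between the sets, by a median of -0.65, -0.78 and -0.95 on the log2(TPM + 1) scale in AINlowVitD against AIN, NWD1Ca against NWD1 and NWD1VitD against NWD1. On that scale the rise of Insm1 was 0.29, 0.34 and 0.53 in these comparisons, which did not pass (limma, adjusted p = 0.439, 0.389 and 0.134), or 0.94, 1.13 and 1.48 relative to the median of all genes. In AIN_VdrKO against AIN it passed there too, at 1.42 (adjusted p = 0.0132). Without AIN 3 that last call was lost in the count test (1.92 ± 0.57, adjusted p = 0.0512), and the call in NWD1Ca was lost without NWD1 3 (1.36, adjusted p = 0.1055) or NWD1Ca 2 (0.0508).

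Neurod1 encodes the basic helix-loop-helix factor that Neurog3 switches on and that drives cell cycle exit and differentiation. It was at 13.9, 12.4 and 19.1 CPM in AIN, at 12.0, 5.64 and 39.5 in NWD1 and at 18.03, 22.4 and 18.4 in NWD2. In NWD1Ca it was at 17.8, 29.1 and 24.3 CPM, in NWD1VitD at 26.9, 43.5 and 32.3, in AINlowVitD at 24.7, 18.1 and 10.7, and in AIN_VdrKO at 14.6, 10.2 and 8.70. NWD1 spanned almost the whole range of the study by itself. No comparison called Neurod1 in the main test. In NWD1VitD against NWD1 it had 1.01 ± 0.44 (edgeR adjusted p = 0.0717), and it passed with DESeq2 (1.08, adjusted p = 0.0417), with no filter on low counts (0.95, adjusted p = 0.0298) and without NWD1 3 (1.87 ± 0.41, adjusted p = 0.0028). Its difference in log2(TPM + 1) was -0.33, or 0.61 relative to all genes.

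The ratio of Neurog3 to Neurod1 sets the early factor against the later one within 1 library and does not depend on the scaling between libraries. In counts the ratio was 0.509, 0.714 and 1.01 in AIN, 2.22, 3.61 and 0.740 in NWD1, and 1.5, 0.879 and 0.630 in NWD2. It was 0.433, 0.225 and 0.187 in NWD1Ca, 0.357, 0.217 and 0.275 in NWD1VitD, 0.0999, 0.375 and 1.18 in AINlowVitD, and 0.804, 0.483 and 0.643 in AIN_VdrKO. The ratio of NWD1 2, for example, has a 95% exact (Clopper-Pearson) interval of 3.19 to 4.10, which covers counting error only. Every NWD1Ca and NWD1VitD library was below every NWD1 library, while AINlowVitD alone ranged over more than the width of AIN. Per length, the mean log2 ratio was -1.102 in NWD1Ca and -1.02 in NWD1VitD against 1.68 in NWD1, differences of -2.78 and -2.70. The exact permutation test, two-sided, gave p = 0.1 for both, the smallest that 3 against 3 libraries allow, and 0.55 after adjustment over the 22 ratio tests. With Isl1 in place of Neurod1 the differences were -3.565 and -3.48, again with no overlap and p = 0.1 in the exact permutation test.

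**Figure D2:**
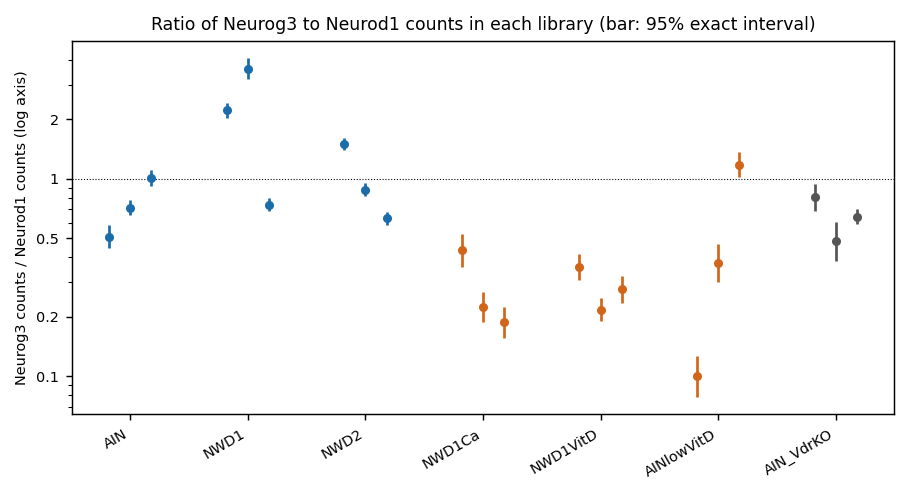
Neurog3 counts divided by Neurod1 counts in each library (log axis), by group, with 95% exact intervals for counting error as bars. The 3 NWD1Ca and 3 NWD1VitD libraries sit between 0.187 and 0.433, and the NWD1 libraries between 0.740 and 3.61.

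Isl1, a LIM-homeodomain factor of many hormone-producing cell types, was at 8.35, 8.69 and 9.97 CPM in AIN, at 6.64, 2.085 and 15.9 in NWD1 and at 8.32, 11.8 and 9.25 in NWD2. It was at 12.9, 24.9 and 16.5 CPM in NWD1Ca, at 25.6, 28.7 and 21.3 in NWD1VitD, at 18.4, 16.2 and 7.95 in AINlowVitD and at 7.07, 7.05 and 5.58 in AIN_VdrKO. NWD1VitD was the group in which all libraries exceeded every first-set library. Isl1 rose by 1.77 ± 0.44 in NWD1VitD against NWD1 (edgeR adjusted p = 0.00398). Against the same NWD1 libraries NWD1Ca had 0.89 ± 0.45 (adjusted p = 0.135), and the 2 additions did not differ by a call (0.88 ± 0.47, adjusted p = 1.00). In AIN_VdrKO against AIN Isl1 differed by -0.11 ± 0.45.

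Pax6, a paired-homeodomain factor needed for several hormone-producing types, was at 3.03, 3.11 and 3.92 CPM in AIN, at 1.71, 0.0701 and 8.08 in NWD1 and at 4.19, 4.93 and 3.89 in NWD2. In NWD1Ca it was at 5.74, 9.52 and 8.79 CPM, in NWD1VitD at 9.09, 14.4 and 10.8, in AINlowVitD at 9.98, 5.69 and 3.90 and in AIN_VdrKO at 3.19, 3.26 and 2.88. The value of NWD1 2 rests on 4 reads. Pax6 rose by 2.15 ± 0.74 in NWD1VitD against NWD1 (edgeR adjusted p = 0.0264), with all NWD1VitD libraries above all NWD1 libraries. The call was lost without NWD1 1 (adjusted p = 0.0871), NWD1VitD 2 (0.0567) or NWD1VitD 3 (0.0617), and with no sex term (0.0587). Without NWD1 1 and NWD1 2, the 2 libraries rich in spike-ins, it had 0.62 ± 0.48 (adjusted p = 0.347) and Isl1 had 0.80 ± 0.46 (adjusted p = 0.198), a fit in which the spread of the lone NWD1 library is taken from the other groups. A fit of the libraries of NWD1VitD and NWD1 alone kept 2 of the 4 calls of that comparison, those of Insm1 and Neurog3. In log2(TPM + 1) neither Isl1 (0.34, or 1.28 relative to all genes) nor Pax6 (0.10, or 1.05 relative to all genes) passed.

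Pax4, Nkx2-2, Rfx6 and Foxa2 were called in no comparison of counts. Pax4, the paired-homeodomain factor tied to serotonin- and somatostatin-producing cells, ranged from 1.43 CPM in AIN_VdrKO 3 to 7.43 in NWD1 3, and its largest difference was 0.75 ± 0.43. Nkx2-2, a homeodomain factor acting with Neurod1 in subtype choice, ranged from 1.09 CPM in NWD1 2 to 8.15 in NWD1 3. Within the second set it kept to 1.885 to 4.86. Pax4 fell with limma on log2(TPM + 1) in AINlowVitD against AIN (-0.96, adjusted p = 0.0322), NWD1Ca against NWD1 (-1.43, adjusted p = 0.00543) and NWD1VitD against NWD1 (-1.40, adjusted p = 0.00234), which is -0.31, -0.65 and -0.46 relative to all genes.

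Rfx6 encodes a winged-helix factor needed for peptide hormone cells, incretin cells among them. It was at 4.57, 7.68 and 16.5 CPM in AIN, at 5.69, 2.4 and 24.45 in NWD1 and at 13.3, 14.2 and 13.5 in NWD2. The second set lay closer together and within the first-set range, at 2.56 to 9.80 CPM, and AIN_VdrKO at 5.26 to 6.62. In AINlowVitD against AIN it had -1.48 ± 0.58 (edgeR adjusted p = 0.0573). This passed with DESeq2, at -1.40 (adjusted p = 0.0356), and without AIN 1 or AIN 2 (adjusted p = 0.0269 and 0.0399), but was -0.34 without AIN 3. In log2(TPM + 1) Rfx6 had -1.53 (adjusted p = 0.0249), or -0.88 relative to all genes.

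Foxa2, a forkhead factor of the whole gut endoderm as well as of endocrine cells, was at 5.24, 10.95 and 3.52 CPM in AIN, at 14.9, 11.5 and 11.4 in NWD1 and at 11.9, 6.19 and 4.46 in NWD2. It kept to 10.1 to 17.3 CPM in second-set libraries and 11.5 to 15.6 in those of AIN_VdrKO. Each NWD1 and each AIN_VdrKO library was above each AIN library, with 0.92 ± 0.40 (edgeR adjusted p = 0.275) and 0.93 ± 0.44 (adjusted p = 0.176). Its direction against NWD1 turned with the scale: 0.16 in NWD1Ca and 0.29 in NWD1VitD in the count test, -1.05 and -1.17 with a call on log2(TPM + 1), and -0.27 and -0.22 there relative to all genes.

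**Figure D3:**
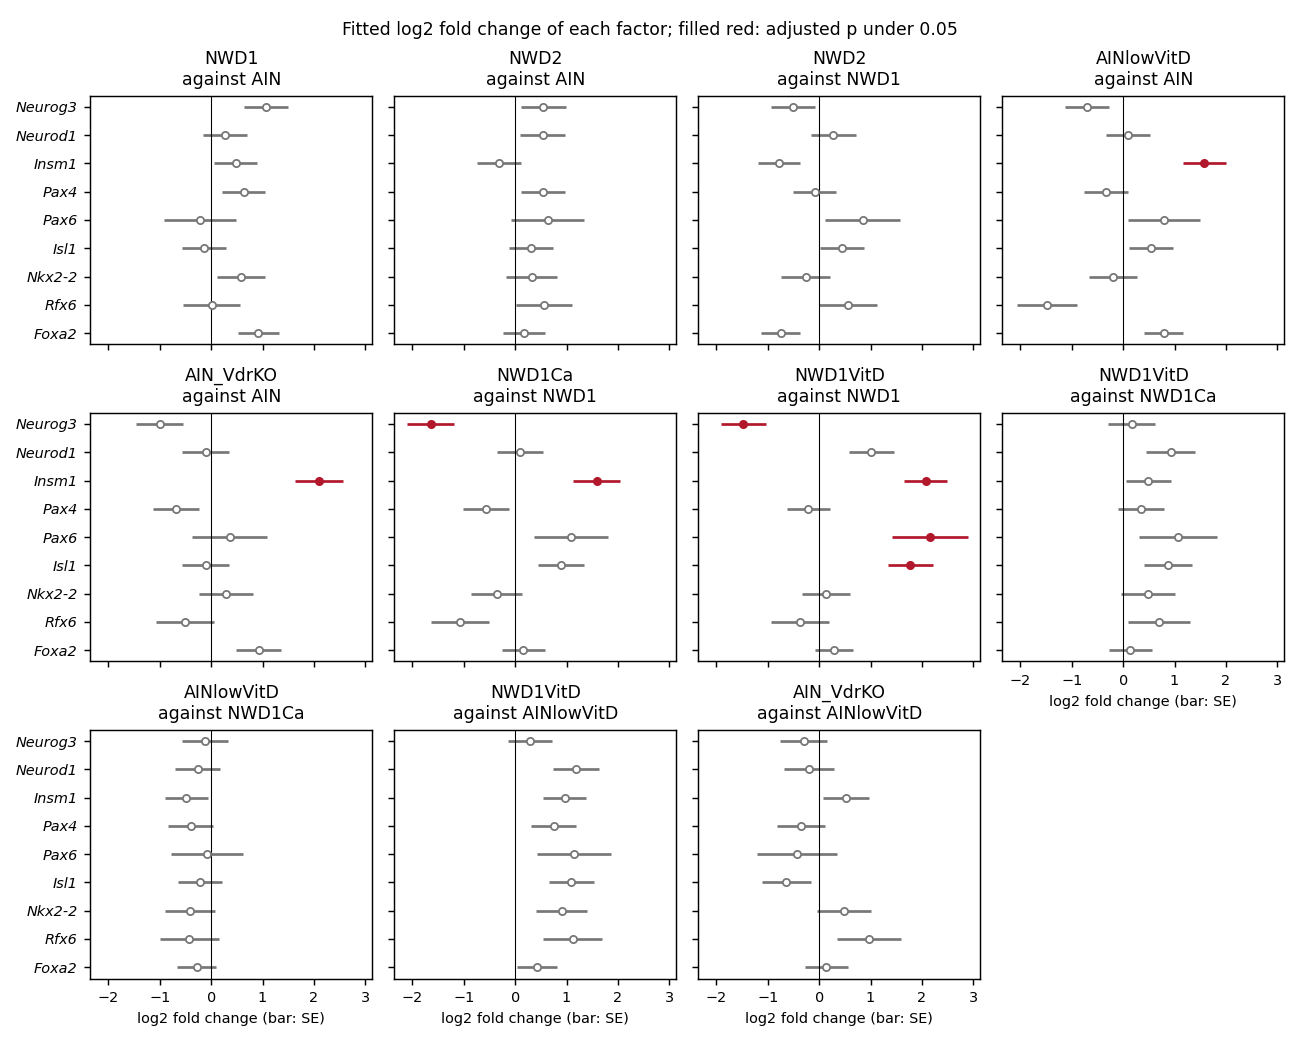
Fitted log2 fold change of each factor in the 11 comparisons (first group against second), with the standard error as bar. Filled red points pass an adjusted p of 0.05 in edgeR's quasi-likelihood test. Insm1 passes in 4 panels, all at or above 1.58, and Neurog3 passes in 2, on the other side of 0.

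Set against all genes, the count of members called was small. It was 0 of 9 in NWD1 against AIN, where 0.766% of 16050 genes were called, 0 of 9 in NWD2 against AIN (0%), and 0 of 9 in NWD2 against NWD1 (0.00623%). By edgeR 2 members, Neurog3 and Foxa2, had an unadjusted p under 0.05 in the first of these, where 15.2% of genes did, and none had in the others, where 6.85% and 10.7% did. Neurog3 and Foxa2 were also the 2 members whose NWD1 libraries all lay above the AIN libraries, as did 5.92% of genes. DESeq2 and limma on TPM called none in these 3 either. Across the sets 1 of 9 was called in AINlowVitD against AIN (31.3% of genes), 2 of 9 in NWD1Ca against NWD1 (30.5%) and 4 of 9 in NWD1VitD against NWD1 (40.5%). In AIN_VdrKO against AIN it was 1 of 9 (12.5% of genes). These shares are near or under their backgrounds. The median log2 fold change of the 9 was 0.09, 0.09, 0.29 and -0.11 in the last 4, against -0.10, -0.04, -0.03 and -0.015 over all genes.

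Within the second set, where library set does not separate the groups, edgeR called 0 of 9 members in each of 3 comparisons, with 0% of all genes called. DESeq2 and limma on TPM called none either. All 9 fitted differences were positive in NWD1VitD against AINlowVitD, with a median of 0.97 against -0.055 over all genes. Other lists leaned the same way there: 14 of 16 secretory granule genes were positive (median 0.59), as were 10 of 10 tuft cell markers (0.345), 7 of 7 goblet cell markers (0.43), 5 of 5 Paneth cell markers (0.83) and 5 of 5 tested neuron markers (0.72), of which Ret and Elavl4 were higher in every NWD1VitD library. Other regulators of secretory and endocrine fate (16 of 19 positive, median 0.52) and hormone genes (10 of 13, 0.37) leaned so too. Stem cell markers (4 of 10 positive, median -0.20), Notch genes (4 of 10, -0.10) and enterocyte markers (6 of 10, 0.02) did not lean so. The part of other cell types in the members' differences was not tested. Neurod1 (1.18 ± 0.45), Isl1 (1.097 ± 0.45) and Insm1 (0.97 ± 0.42) had an unadjusted p under 0.05 there, as 2.91% of genes had, and an adjusted p of 1 by edgeR. In the other two, NWD1VitD and AINlowVitD against NWD1Ca, no member had such a p, against 2.32% and 1.3% of genes. For 6 of 9 members, Insm1, Isl1, Neurod1, Nkx2-2, Pax4 and Rfx6, every NWD1VitD library was above every AINlowVitD library in CPM, as for 4.32% of all genes. In TPM this held for 5, and the share of all genes on that scale is not given here. Against NWD1Ca, all 9 were positive in NWD1VitD (median 0.49, or 7 of 9 positive on log2(TPM + 1)) and all 9 negative in AINlowVitD (median -0.28). The 3 comparisons share their libraries and are not separate evidence of each other, and members that vary together, such as Neurod1 and Isl1, are not separate tests. Without AINlowVitD 1 or without NWD1VitD 2, 8 of 9 stayed positive in NWD1VitD against AINlowVitD.

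AIN_VdrKO against AINlowVitD sets the lost receptor against the reduced vitamin, both on the AIN base. EdgeR called 0 of 9 members, with 3.07% of genes called, none had an unadjusted p under 0.05 (20.2% of genes had), and DESeq2 called none. In CPM, Isl1 and Pax6 were lower in every AIN_VdrKO library (-0.65 ± 0.48 and -0.43 ± 0.77), as were 12.8% of genes, and Rfx6 higher in every one (0.97 ± 0.62), as were 16.1%, and none passed. In TPM no member was lower in every AIN_VdrKO library and 4 were higher in every one. The share of all genes clear in that way in TPM is not given here. With limma on log2(TPM + 1), where all genes shift by 0.63, Insm1 passed at 1.13 (limma, adjusted p = 0.0264), or 0.50 relative to all genes.

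The hormone genes followed another pattern. Of a list of 14, 13 were tested, and Insl5, with 0 to 6 counts, was not. In AINlowVitD against AIN 8 rose and none fell, in NWD1Ca against NWD1 9 rose, and in NWD1VitD against NWD1 10 rose. Of all genes, 31.3%, 30.5% and 40.5% were called there in either direction. The hormone medians were 2.19, 2.71 and 3.34 on the log2 scale. Sst, which encodes somatostatin, rose by 2.71 ± 0.44, 3.54 ± 0.47 and 4.22 ± 0.47 in these (edgeR adjusted p = 0.000318, 8.58e-05 and 9.00e-06). Ghrl, the ghrelin gene, rose by 2.77 ± 0.57, 3.87 ± 0.62 and 4.30 ± 0.61. Gip, which encodes an incretin, was at 268 CPM in NWD1 and 3500 and 3812 in NWD1Ca and NWD1VitD. Each of these medians exceeded the largest change of a member in its comparison. With log2(TPM + 1) 5, 5 and 8 of these rises passed, Iapp turned negative in AINlowVitD against AIN, and 2 hormone genes there were called lower. Summed over the hormone genes, TPM ran from 980 to 6140 in first-set libraries, from 8201 to 17100 in second-set libraries and from 3313 to 5358 in AIN_VdrKO. The summed TPM of the 9 factors ran from 34.0 to 194 in first-set libraries, from 21.1 to 46.9 in second-set ones and from 34.5 to 46.4 in AIN_VdrKO. The sets overlapped in that sum, which holds Neurog3 at up to 62.7 TPM in the first set. The median of all genes also shifts down across the sets on log2(TPM + 1). In counts, NWD1VitD against NWD1 called Insm1, Isl1 and Pax6 higher (2.08, 1.77 and 2.15), as it did hormone genes, and Neurog3 lower (-1.48). In bulk RNA, fewer cells of a type and less RNA per cell cannot be told apart, for factors and for hormones.

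In CPM, AIN_VdrKO libraries had Insm1 within the range of the second set, with no call against AINlowVitD (0.53 ± 0.45, edgeR adjusted p = 0.537). On log2(TPM + 1) Insm1 was higher than in AINlowVitD (1.13, limma, adjusted p = 0.0264), or 0.50 relative to all genes. The summed hormone TPM of each AIN_VdrKO library was below that of every second-set library. In AIN_VdrKO against AINlowVitD 5 hormone genes fell and none rose, beside 3.07% of all genes called in either direction. The log2 fold change was -3.47 ± 0.62 for Ghrl (edgeR adjusted p = 0.00621), -2.44 ± 0.45 for Sst (adjusted p = 0.00811), -2.397 ± 0.59 for Sct, the secretin gene (adjusted p = 0.0311), and -3.98 ± 1.01 for Gast, the gastrin gene (adjusted p = 0.0364), which was at 0.0860 CPM in AIN_VdrKO. On the TPM scale 4 of the 5 passed. In counts all 13 hormone genes were negative there, with a median of -1.43. All 10 enterocyte markers (median -1.43, 1 called lower) and all 10 tuft cell markers (-0.735) were negative too. So were 6 of 7 goblet cell markers (-0.82, 2 called lower). Stem cell markers (9 of 10 positive, 0.555) and Paneth cell markers (4 of 5, 2.08) went the other way. The part of other cell types in the fall of the hormone genes was not tested. Against AIN no hormone gene was called by edgeR and none had an unadjusted p under 0.05, while Insm1 rose by 2.11. Within the second set no hormone gene was called by edgeR. At an unadjusted p under 0.05 there were 2 of 13 in NWD1VitD against NWD1Ca, 1 in AINlowVitD against NWD1Ca and 1 in NWD1VitD against AINlowVitD. Of all genes, 2.32%, 1.3% and 2.91% had such a p.

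Library by library, the highest correlations with the hormone level were those of Pax6, Isl1 and Neurod1. The hormone level was the mean log2(CPM + 1) of the 13 tested hormone genes, from 3.20 in NWD1 2 to 7.78 in NWD1VitD 2. Each relation was taken within a set, over 9 libraries. The values were not centred by group, so differences between the diet groups of a set enter r, rho and their permutation p. In the second set, Pearson's r was 0.838 for Pax6 (exact permutation p = 0.00524, adjusted p = 0.0943 over the 18 relations), with a Spearman's rho of 0.900 (exact permutation p = 0.00203, adjusted p = 0.0365). For Neurod1 it was 0.764 (exact permutation p = 0.0188, adjusted p = 0.0967), with a rho of 0.817 (p = 0.0108). Leaving out the 2 libraries farthest from the median hormone level, NWD1Ca 1 and NWD1VitD 2, r was 0.755 for Pax6 and 0.595 for Neurod1. In the first set r was 0.909 for Isl1 (exact permutation p = 0.0111, adjusted p = 0.0967) and 0.861 for Pax6 (p = 0.0215, adjusted p = 0.0967), with a rho of 0.650 and 0.433. In CPM those 2 first-set relations rest on NWD1 2: without it r was 0.507 and 0.370. On log2(TPM + 1) r was 0.906 for Isl1 and 0.811 for Pax6, and 0.772 and 0.803 without NWD1 2 and NWD1 3. In CPM, 0 of 18 relations passed by Pearson's r after adjustment, and 4 had an unadjusted permutation p under 0.05.

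Neurog3 had r of -0.288 in the first set and -0.187 in the second, and Foxa2 -0.301 and -0.008, with exact permutation p between 0.504 and 0.984. These values do not show that a relation is absent. With the 16 secretory granule genes in place of the hormones, 10 of 18 relations passed by Pearson's r (exact permutation test, adjusted) and none by Spearman's rho. The 10 held none of Neurog3, Pax4 or Foxa2, and without the 2 libraries farthest from the median granule level their r ran from -0.079 to 0.718. In the first set Neurod1 went from 0.853 to 0.163 and in the second Rfx6 from 0.752 to -0.079, so most of these relations rest on those libraries. Of that granule list 4, 5 and 6 of 16 genes rose in AINlowVitD against AIN, NWD1Ca against NWD1 and NWD1VitD against NWD1, near or under the 31.3%, 30.5% and 40.5% of all genes called, which on log2(TPM + 1) became 2, 2 and 2, with 3, 1 and 1 lower.

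**Figure D4:**
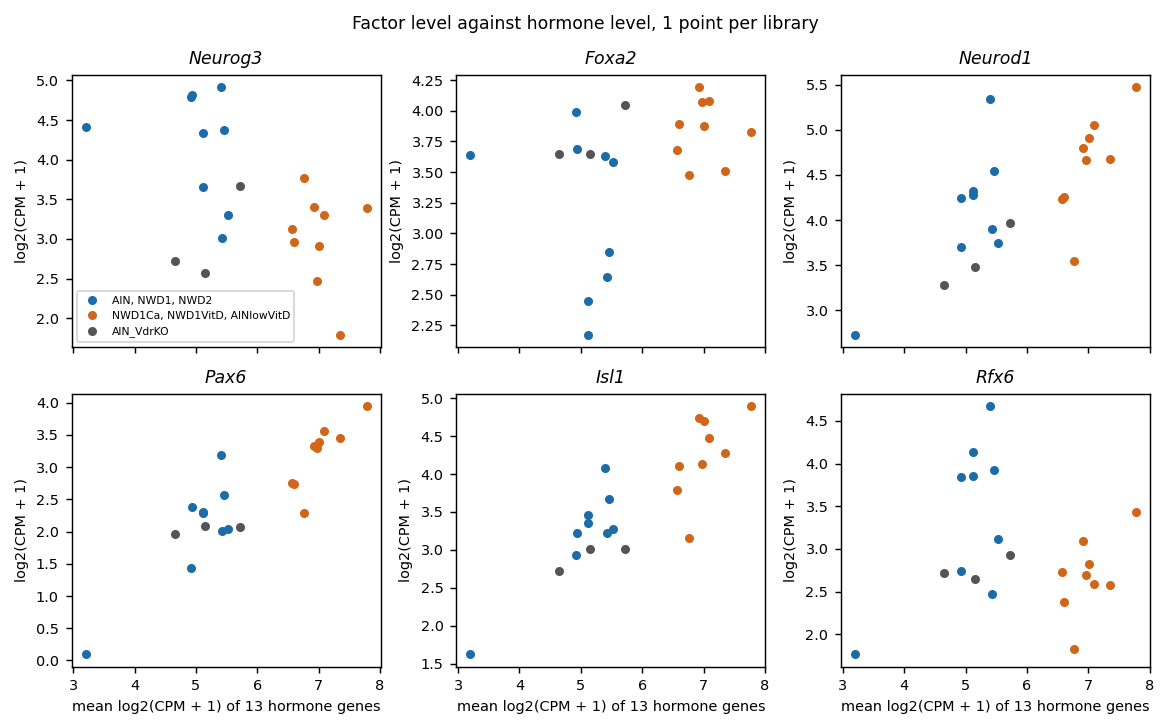
Level of 6 of the factors, as log2(CPM + 1), against the mean log2(CPM + 1) of 13 hormone genes, 1 point per library, coloured by library set. Within the second set Pearson's r is 0.838 for Pax6, 0.764 for Neurod1, 0.624 for Isl1 and -0.187 for Neurog3, none of which passed after adjustment. The Isl1 relation did not pass before adjustment either (exact permutation p = 0.0746). NWD1 2 sits alone at 3.20.

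How the factors vary among themselves was read from log2(CPM + 1) centred within each group over 21 libraries, which removes diet and set. The values are descriptions, since the libraries share depth and scaling. Neurod1, Pax6, Isl1, Rfx6 and Nkx2-2 moved together, with Pearson's r of 0.708 to 0.963 in their 10 pairs (median 0.848). This block was picked out after its values were seen, and it rests in part on NWD1: over the 18 libraries outside NWD1 its pairs had 0.142 to 0.895 (median 0.528), and only the pairs among Neurod1, Pax6 and Isl1 stayed above 0.8. Neurog3 had -0.072 to 0.575 with the other members (median 0.053), with Pax4 the most like it at 0.575, and 0.572 without NWD1. Foxa2 had -0.172 to 0.379.

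**Figure D5:**
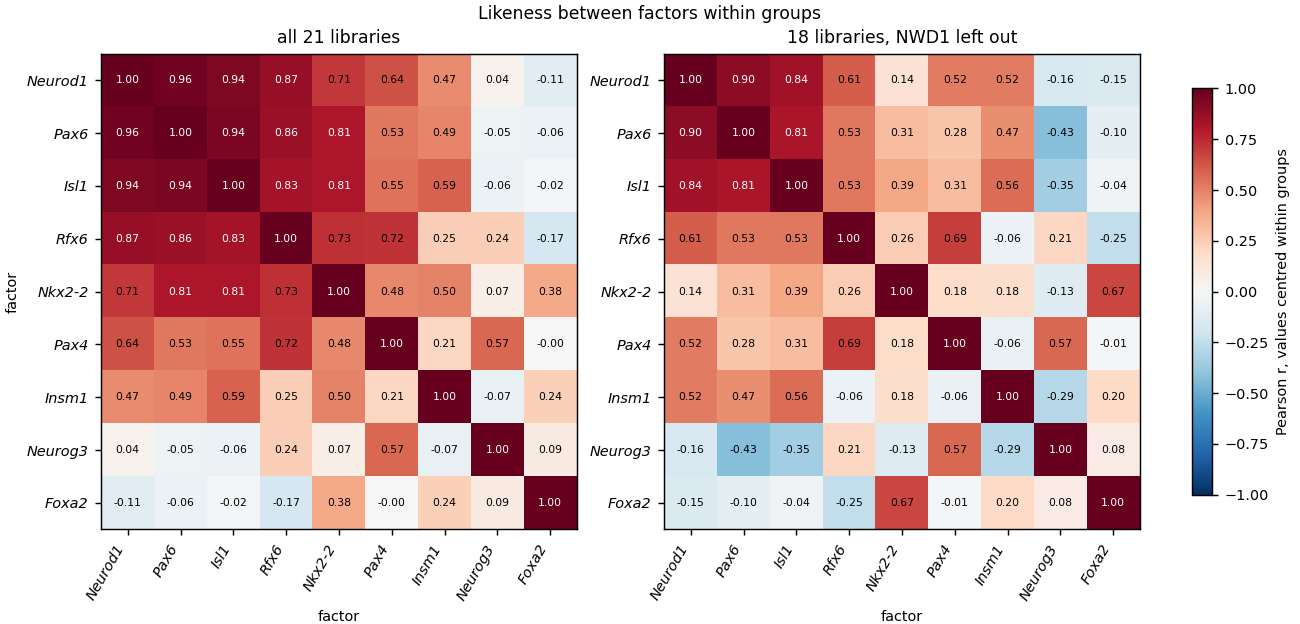
Pearson's r between the 9 factors over libraries, from values centred within groups, for all 21 libraries and for the 18 outside NWD1. The block of high values holds Neurod1, Pax6, Isl1, Rfx6 and Nkx2-2 and thins without NWD1, while Neurog3 has its highest value against Pax4 (0.575).

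The genes most like the mean of the 9 factors, on the same centred values, were Tac1 (r = 0.936), which encodes substance P, Vim (0.924), an intermediate filament gene also on the mesenchyme list used here, Gfra3 (0.908), a receptor subunit for artemin, Lmx1a (0.903), a LIM-homeodomain factor of serotonin cells, and Vwa5b2 (0.900). Chgb (0.879) and Chga (0.877), the chromogranins of the secretory granule, Scgn (0.877), a calcium sensor, Gng4 (0.874) and Olfm1 (0.857) followed. Without NWD1 these 10 had r of 0.574 to 0.860 over 18 libraries. The genes most like Neurog3 alone were others: Fhdc1 (0.787), Mphosph10 (0.763), AU019823 (0.748), Rrp8 (0.746) and Lekr1 (0.736). None of the 5 is on a gene list used here, and without NWD1 they had 0.757 to 0.904.

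Other regulators of secretory and endocrine fate, a list of 21 genes of which 19 were tested, were called in both directions. In AINlowVitD against AIN 5 rose and 3 fell, and in NWD1Ca against NWD1 5 and 4. In NWD1VitD against NWD1 it was 7 and 5, and in AIN_VdrKO against AIN 4 and 2. The medians were 0.40, 0.615, 0.78 and 0.14 in that order, and 31.3%, 30.5%, 40.5% and 12.5% of all genes were called. Sox4, a factor of endocrine progenitors, rose by 2.79 ± 0.73, 2.67 ± 0.84, 2.82 ± 0.73 and 3.63 ± 0.88 in these 4 comparisons. Atoh1, the gatekeeper of the secretory lineage upstream of Neurog3, fell by 1.47 (SE 0.29, edgeR adjusted p = 0.00124) in NWD1Ca against NWD1, from 126 to 46.4 CPM. The falls all passed on log2(TPM + 1) too, but of the rises only 1, 0 and 1 passed there in the 3 comparisons across the sets, Tox3 turned negative in both against NWD1, and Foxa1, Gfi1 and Runx1t1 in NWD1VitD. In AIN_VdrKO against AIN all 6 passed on both scales. EdgeR called none within a set. Its unadjusted p was under 0.05 for 7 of 19 in NWD1 against AIN, 3 in NWD2 against AIN and 3 in NWD2 against NWD1. Of all genes, 15.2%, 6.85% and 10.7% had such a p there. In NWD1VitD against NWD1Ca, AINlowVitD against NWD1Ca and NWD1VitD against AINlowVitD it was 3, 0 and 6 of 19. The shares of all genes were 2.32%, 1.3% and 2.91%.

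Of 11 Notch genes, 10 were tested. Hes1, the Notch target that represses secretory fate genes, rose by 3.55 ± 0.62 in AINlowVitD against AIN, 2.60 ± 0.72 in NWD1Ca against NWD1 and 2.43 ± 0.59 in NWD1VitD against NWD1 (edgeR adjusted p = 0.000591, 0.0113 and 0.00353). The ligand gene Dll1 fell by 1.35, 1.92 and 1.77 on the log2 scale, and Dll4 by 1.12, 1.83 and 1.57. In counts called, 2 rose and 2 fell in each of the first 2 comparisons and 2 rose and 3 fell in the third, beside 31.3%, 30.5% and 40.5% of all genes called. On log2(TPM + 1) 1 was called higher and 2 lower in the first, 1 and 6 in the second, and 0 and 8 in the third, comparisons in which the median of all genes shifts down on that scale. Jag1 was negative there in the first and the third. EdgeR called none in the comparisons within a set, where 3, 3, 2, 0, 0 and 0 of 10 had an unadjusted p under 0.05. In the same order 15.2%, 6.85%, 10.7%, 2.32%, 1.3% and 2.91% of all genes had such a p.

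Markers of other cells that could carry these factors were read beside them. Of 8 neuron markers, Ret (5 to 154 counts) and Snap25 (1 to 662) had counts in 21 of 21 libraries, Tubb3 in 20, Elavl4 in 19, Uchl1 in 18 and Prph in 13, while Stmn2 was at 0 in 20. The neuron list summed to 0.112 to 9.46 TPM in first-set libraries, 1.28 to 2.67 in second-set ones and 1.59 to 3.11 in AIN_VdrKO. The leukocyte list, in the same order, summed to 3.24 to 28.9, 2.02 to 4.09 and 5.17 to 8.36 TPM. The mesenchyme list summed to 3.801 to 26.0, 3.94 to 12.0 and 5.52 to 9.10 TPM, most of it Vim, which had 178 to 1205 counts in 21 of 21 libraries, while Col1a1, Col1a2, Col3a1, Pdgfra and Dcn were at 0 in 12 to 16 of 21. For stem cell markers the sum ran from 1462 to 12620 TPM in first-set libraries, from 320 to 1198 in second-set ones and from 1890 to 4072 in AIN_VdrKO, and for tuft cell markers from 485 to 3773, from 207 to 602 and from 375 to 467. Goblet cell markers ran from 33820 to 80080 TPM in first-set libraries, from 75750 to 132400 in second-set ones and from 22830 to 40760 in AIN_VdrKO. Enterocyte markers ran from 4430 to 40090 TPM in first-set libraries, from 23910 to 75240 in second-set ones and from 17010 to 22490 in AIN_VdrKO. Paneth cell markers ran from 11060 to 40500, from 21240 to 117400 and from 28740 to 90060 TPM in the same order. In TPM the stem cell sum separates the sets, as the hormone sum does, and the other sums overlap between them. Such sums weigh the most abundant genes. In each group Olfm4 had the highest mean CPM of the stem cell list, at 2838 in AIN, 6503 in NWD1 and 1073 in NWD1Ca. Gip had the highest mean TPM of the hormone list in each group. Lgr5 itself overlapped between the sets in CPM. The median of all genes shifts down across the sets on log2(TPM + 1). Of 10 stem cell markers, edgeR called 0 in AINlowVitD against AIN (median 0.02), beside 31.3% of all genes. It called 3 lower in NWD1Ca and 5 lower in NWD1VitD against NWD1 (medians -0.76 and -1.08), beside 30.5% and 40.5%. Of 10 enterocyte markers it called 1, 5 and 8 higher and none lower in these 3 comparisons (medians 0.24, 2.07 and 3.02). In NWD1 against AIN it called 3 enterocyte markers lower (median -2.51), beside 0.766% of all genes. All 10 stem cell markers were positive there (median 1.24), with 0 called. The part of these markers in the results on Insm1, Neurog3 and the hormones was not tested.

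Sex had no called effect on any member in the same fit. Neurog3 was higher in males by 0.67 on the log2 scale, and Neurod1 and Isl1 had -0.63 and -0.60, each with an unadjusted p under 0.05 and an adjusted p of 0.9997 by edgeR's quasi-likelihood test. NWD1VitD against NWD1 called 3 of 9 members without the sex term.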

How the data were processed

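The members and all gene lists were chosen with earlier results of these data known. The authors deposited raw read counts and TPM values for 37310 genes and, in the counts, 92 spike-in RNAs. Per the labels' protocols, libraries were made with SMART-Seq v4 and Nextera XT; the submitters' processing notes name the aligner STAR (2.4.2a), the counter HTSeq (0.6.1), edgeR and build mm9, with no settings in the sources used here. TPM divides counts by gene length and rescales each library. Spike-ins stayed out of library sizes.

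Differences were tested with edgeR 4.0.16 in R 4.3.3 (quasi-likelihood, two-sided) on deposited counts, scaled by TMM and filtered by filterByExpr. It fitted all 21 libraries with a mean per group and a sex term, and Benjamini-Hochberg adjustment ran over 16050 genes with a threshold of 0.05. Errors after ± are standard errors of log2 fold changes, or SD where said. Nothing in the labels shows that replicates came from separate animals, so p-values measure the spread between libraries. PCR copies carry no molecular identifiers, so intervals cover counting error only. Alternatives were limma 3.58.1 on log2(TPM + 1) and log2(TPM + 0.1), DESeq2 1.42.0, other scaling, filter, sex, block and library choices, and, added after the data were seen, a GC and length offset and 2 left-out libraries in the relations. GC content and length came from GENCODE M21 transcripts on GRCm38 for 95.6% of tested genes. Relations used exact permutation of the pairings of 9 libraries, or of 6 to 8 where libraries were left out. The named genes are all members, up to 4 genes of another list with the smallest p in a comparison, and the genes most like the members (10) or Neurog3 (5). The scripts were tested on simulated data. Values of some single genes of these lists are not reported here.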

Additional observations from a re-analysis of the deposited data

How the results depend on the processing

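Of 1584 alternative values of single members, 1366 kept their call and direction or moved by under 1 SE, 152 moved further, 36 came past the threshold, 26 fell short of it, and 4 reversed: Foxa2 in NWD1Ca against NWD1 had -1.05 with limma on log2(TPM + 1) and -1.15 on log2(TPM + 0.1), and in NWD1VitD against NWD1 -1.17 and -1.29. The counts of members called stayed at 0 in 6 comparisons, those within a set, under every alternative other than leaving out a library. On log2(TPM + 1) and log2(TPM + 0.1) they were 3 and 3 in AINlowVitD against AIN, 4 and 4 in NWD1Ca against NWD1, and 1 and 2 in AIN_VdrKO against AINlowVitD. In AINlowVitD against AIN the count was 2 with DESeq2, 2 with no filter, and 3 without AIN 1, AIN 2 and NWD1 1, which gave 2 in AIN_VdrKO against AIN. A fit of the 2 groups alone gave 2 in NWD1VitD against NWD1. Relations past the threshold were 4 on log2(TPM + 1), 10 with granule genes, 2 without AIN 1, AIN 2 and NWD1 1, and 0 without NWD1 2 or NWD1VitD 2.

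Leaving out 1 library at a time gave 0 to 2 members called in AIN_VdrKO against AIN (0 without AIN 3, 2 without AIN 2), 1 to 3 in AINlowVitD against AIN (3 without AIN 2, 2 without AIN 1), 1 to 3 in NWD1Ca against NWD1 (1 without NWD1Ca 2 or NWD1Ca 3), 2 to 4 in NWD1VitD against NWD1 (2 without NWD1VitD 3), 0 to 1 in NWD2 against AIN (Rfx6 without AIN 3, 1.98, adjusted p = 0.0468 by edgeR) and 0 in the others. Without NWD1 3, NWD1Ca against NWD1 called Isl1 and Pax6 and no longer Insm1 or Neurog3.

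Replicate numbers did not pair the libraries: in 0 of 11 comparisons was every same-number correlation over 0.1 (range -0.185 to 0.376). With the replicate block the counts were 0, 0, 0, 1, 1, 2, 4, 0, 0, 0 and 0, as without it.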
